A study of Bos taurus with 8 samples.

Results

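The genes described here are those of B cells and of plasma cells, the antibody-secreting cells that B cells give rise to, in the lung of newborn calves. Of 9 genes named (CD79A, CD79B, MS4A1, BLK, JCHAIN, POU2AF1, CD22, TNFRSF17 and TNFRSF13C), 6 were matched to probes through the transcript accession that the array files give for each probe, and CD79B, CD22 and TNFRSF17 were not. The 6 genes had 10 of the 43653 probes, with 2 probes each for MS4A1, CD79A, TNFRSF13C and JCHAIN and 1 each for BLK and POU2AF1. The animals were 4 cloned Holstein calves with respiratory failure, which died within their first 4 days, and 4 naturally conceived, healthy Holstein calves killed at 4 days, each measured on its own 1-colour array. Every sample is labelled 4 days, and the donor cells of the clones are not given in the sources used here.

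A B cell senses antigen through its surface receptor, an immunoglobulin held together with the signalling chains CD79A and CD79B, and passes the signal on through kinases such as BLK. Its survival depends on the cytokine BAFF, which acts through the receptor TNFRSF13C. Once activated, it can become a plasma cell, which loses MS4A1 (CD20) and makes antibody together with JCHAIN, the chain that joins immunoglobulin A and immunoglobulin M into polymers for transport across mucosal surfaces. In the lung and airways these cells lie in lymphoid follicles and beneath the epithelium, and in a newborn they are still few.

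The clones gave between 78.8% and 80.6% of spots well above background, against 80.4% to 83.5% in the normal animals, and the number of arrays limits the precision. All values are log2 signals relative to the 75th percentile of the same array, on which the 10 spike-in controls were all higher in clones, with a median log2 difference of 0.67, so a change shared by most genes cannot be read from them. All clone arrays were on 1 slide and all normal arrays on a second, and the recorded scan date differed in the same way. Slide, scan and group therefore cannot be told apart. Cloning, respiratory failure and manner of death also went together by group and cannot be told apart. The lung genes SFTPA1, SFTPB, SFTPC, SFTPD, NKX2-1, ABCA3, SCGB1A1, AGER, PECAM1 and CDH5 were all well above background on the 8 arrays, with 0 called. Their log2 differences were positive in 5 and negative in 5, the lowest being -1.81 for the club cell protein SCGB1A1 (limma, adjusted p = 0.202), and clone 1 was the highest of the 8 in 5 of the 10 and the lowest in 3. In whole lung, fewer B cells and less RNA per B cell cannot be told apart.

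None of the measured B cell and plasma cell genes met the significance threshold, but 1 animal stood far from the rest. In clone 1 the plasma cell gene JCHAIN was 8.42-fold above the next animal and POU2AF1, a coactivator of immunoglobulin gene transcription, was 7.24-fold above it. The same animal also had the highest MS4A1 and TNFRSF13C signal of the 8 on the brightest probe of each gene, while CD79A and BLK were highest in clone 3. The second TNFRSF13C probe was instead highest in normal animal 1, and the second CD79A probe in normal animal 2. Clone 1 stood apart widely on these arrays, being the highest of the 8 animals in 26.5% of all genes. All 10 probes were well above background on enough arrays to be tested, and 6 of them on all 8 arrays. With limma over 35635 probes, 0 of the 10 had an adjusted p under 0.05, where 0.177% of all probes did, and 0 of the 6 genes, where 0.182% of all genes did. An unadjusted p under 0.05 was reached by 1 of the 10 probes, against 13.2% of all probes. The groups overlapped on all 10 probes, while 10.1% of all probes separated them fully. On the brightest probe of each gene, the log2 difference (clone minus normal) was above 0 for 4 genes, beside 48.3% of all genes, and below 0 for 2, with a median of 0.18 beside -0.017 for all 9866 genes. The sign of that median was not stable: it was -0.23 without clone 1 and -0.048 without normal animal 1, and -0.50 with centring on the spike-in controls.

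**Figure D1:**
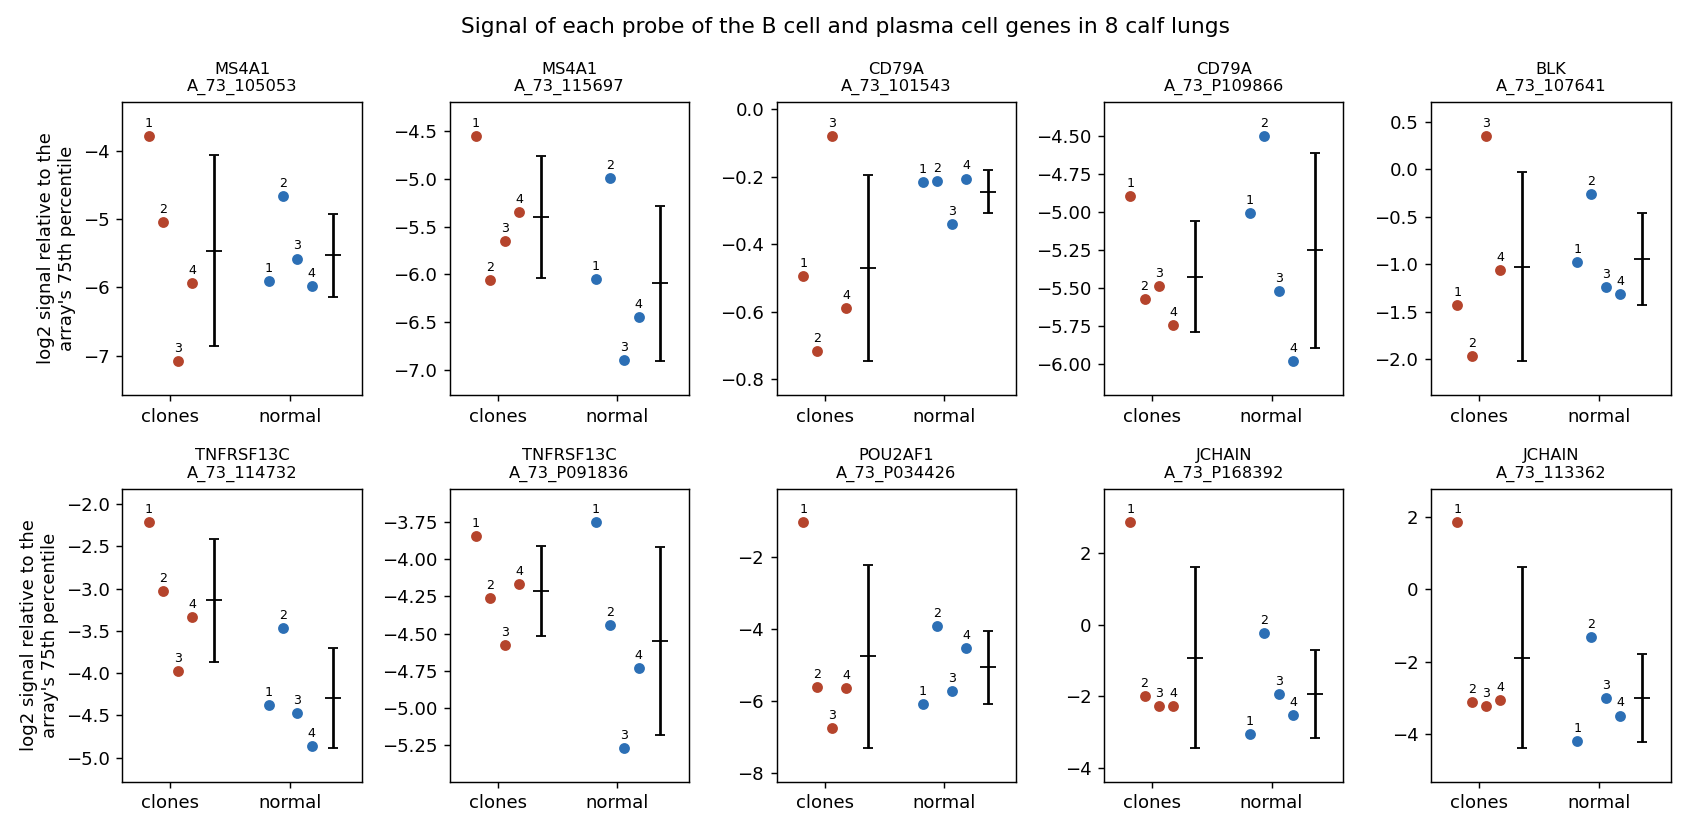
Each panel is 1 probe, with the log2 signal relative to the array's 75th percentile on the vertical axis (scale differs by panel), red points for clones 1 to 4, blue points for normal animals 1 to 4, and the mean ± SD of each group in black. Clone 1 is the highest of the 8 animals on 6 of the 10 probes, against 20.1% of all probes, by the widest gap on both JCHAIN probes and POU2AF1. Normal animal 2 is the highest normal animal on 8 of the 10. Counted by gene on the brightest probe, it is so in 5 of the 6 genes, against 31.0% of all genes.

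JCHAIN was measured by 2 probes that gave the same picture. On the brighter, A_73_P168392, the log2 signal was 2.85, -1.99, -2.26 and -2.28 in clones 1 to 4, against -3.06, -0.22, -1.95 and -2.52 in normal animals 1 to 4. Clone 1 lay 4.84 above the next clone, while the other three clones spanned only 0.30 and lay inside the range of the normal animals. Normal animal 2 was the second highest of the 8 and lay 1.72 above the next normal animal. The group means were -0.92 ± 2.52 in clones and -1.94 ± 1.23 in normal animals (SD, n = 4 each). The log2 difference was 1.02 (95% interval -1.67 to 3.71; limma, adjusted p = 0.768). The difference was -0.24 without clone 1, so its sign rests on that animal. On the second probe, A_73_113362, the log2 signal was 1.84, -3.11, -3.23 and -3.05 in clones, against -4.18, -1.33, -3.01 and -3.48 in normal animals. Clone 1 was again highest and normal animal 2 second, and the log2 difference of 1.11 (95% interval -1.55 to 3.77; limma, adjusted p = 0.741) became -0.13 without clone 1.

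POU2AF1, also called OCA-B or BOB.1, is needed in mice for germinal centres and is expressed in B cells and plasma cells. Its probe, A_73_P034426, read -1.05, -5.61, -6.76 and -5.63 in clones 1 to 4, against -6.07, -3.91, -5.71 and -4.54 in normal animals 1 to 4. As with JCHAIN, clone 1 was far above every other animal and normal animal 2 came second. Clone 3 was the lowest of the 8 and its spot was not well above background. The means were -4.76 ± 2.53 in clones and -5.06 ± 1.01 in normal animals (SD, n = 4 each). The log2 difference was 0.30 (95% interval -2.32 to 2.91; limma, adjusted p = 0.942). Without clone 1 the difference was -0.94 (adjusted p = 0.345), and without clone 3 it was 0.96 (adjusted p = 0.711).

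MS4A1 encodes CD20, a surface protein of B cells that is lost on plasma cells. On its brighter probe, A_73_105053, the log2 signal was -3.78, -5.04, -7.08 and -5.94 in clones 1 to 4, against -5.91, -4.66, -5.58 and -5.98 in normal animals 1 to 4. Clone 1 was highest, clone 3 lowest and not well above background, and the 4 normal animals lay between them. The means were -5.46 ± 1.39 in clones and -5.53 ± 0.61 in normal animals (SD, n = 4 each). The log2 difference was 0.072 (95% interval -1.41 to 1.56; limma, adjusted p = 0.976). The second probe, A_73_115697, read -4.55, -6.06, -5.65 and -5.34 in clones, against -6.04, -4.99, -6.89 and -6.44 in normal animals, of which 2 were not well above background. On this probe clone 1 was also the highest, but clone 3 was above clone 2, and the log2 difference was 0.69 (95% interval -0.34 to 1.73; limma, adjusted p = 0.568). The probes therefore agree that clone 1 was highest and normal animal 2 second, but not on clones 2 and 3. Their Pearson r was 0.51 across the 8 animals and 0.14 without clone 1, so MS4A1 is uncertain on this array.

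TNFRSF13C, the BAFF receptor, had the lowest p of the 6 genes. On its brighter probe, A_73_114732, the log2 signal was -2.22, -3.03, -3.97 and -3.33 in clones 1 to 4, against -4.38, -3.47, -4.47 and -4.86 in normal animals 1 to 4. Clones 1, 2 and 4 were above every normal animal, and clone 3 was below normal animal 2. The means were -3.14 ± 0.73 in clones and -4.30 ± 0.59 in normal animals (SD, n = 4 each). The log2 difference was 1.16 or 2.23-fold (95% interval of the log2 difference 0.21 to 2.11). The limma test gave an unadjusted p of 0.0221 and an adjusted p of 0.284, which did not pass. With 1 animal left out the difference stayed between 0.85 and 1.44, and leaving out clone 1 gave the lowest value. It depended more on the processing, at 0.11 (adjusted p = 0.935) with normexp background correction and 75th percentile centring, 0.59 with normexp and quantile normalization and 0.47 with spike-in centring, while array weights gave 1.27 (adjusted p = 0.0253). The second probe, A_73_P091836, read -3.85, -4.26, -4.58 and -4.17 in clones, against -3.75, -4.44, -5.27 and -4.73 in normal animals. There the groups overlapped more widely, normal animal 1 was the highest of the 8, and the log2 difference was 0.34 (95% interval -0.40 to 1.07; limma, adjusted p = 0.715). The probes had a Pearson r of 0.55 across the 8 animals and 0.38 without clone 1, so TNFRSF13C is also uncertain on this array.

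CD79A, the signalling chain of the B cell receptor that is kept from early B cells to plasma cells, varied less than the other genes on its brighter probe. On A_73_101543 the log2 signal was -0.50, -0.72, -0.079 and -0.59 in clones 1 to 4, against -0.22, -0.21, -0.34 and -0.21 in normal animals 1 to 4. Clones 1, 2 and 4 were below every normal animal and clone 3 was above all of them. The means were -0.47 ± 0.28 in clones and -0.24 ± 0.065 in normal animals (SD, n = 4 each). The log2 difference was -0.23 (95% interval -0.65 to 0.19; limma, adjusted p = 0.656). The second CD79A probe, A_73_P109866, read -4.90, -5.57, -5.49 and -5.74 in clones, against -5.01, -4.50, -5.52 and -5.98 in normal animals, with clone 4 not well above background. On it the highest animals were normal animal 2 and clone 1, as for JCHAIN, and the log2 difference was -0.17 (95% interval -0.95 to 0.60; limma, adjusted p = 0.874). Across the 8 animals the 2 CD79A probes had a Pearson r of 0.18, while the 2 JCHAIN probes had 1.00, so CD79A is uncertain on this array.

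BLK is a SRC-family kinase of the B cell receptor pathway that other cells can also express. Across the 8 animals its Pearson r was 0.76 with the brighter CD79A probe and -0.11 with the brighter JCHAIN probe. Without clone 1 the r was 0.75 and 0.28. The log2 signal of BLK was -1.43, -1.97, 0.36 and -1.06 in clones 1 to 4, against -0.97, -0.25, -1.24 and -1.31 in normal animals 1 to 4. Clone 3 was the highest of the 8, clones 1 and 2 were the lowest, and normal animal 2 was the highest normal animal. The log2 difference was -0.082 (95% interval -1.18 to 1.02; limma, adjusted p = 0.964), and it was 0.23 without clone 2 and -0.54 without clone 3.

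**Figure D2:**
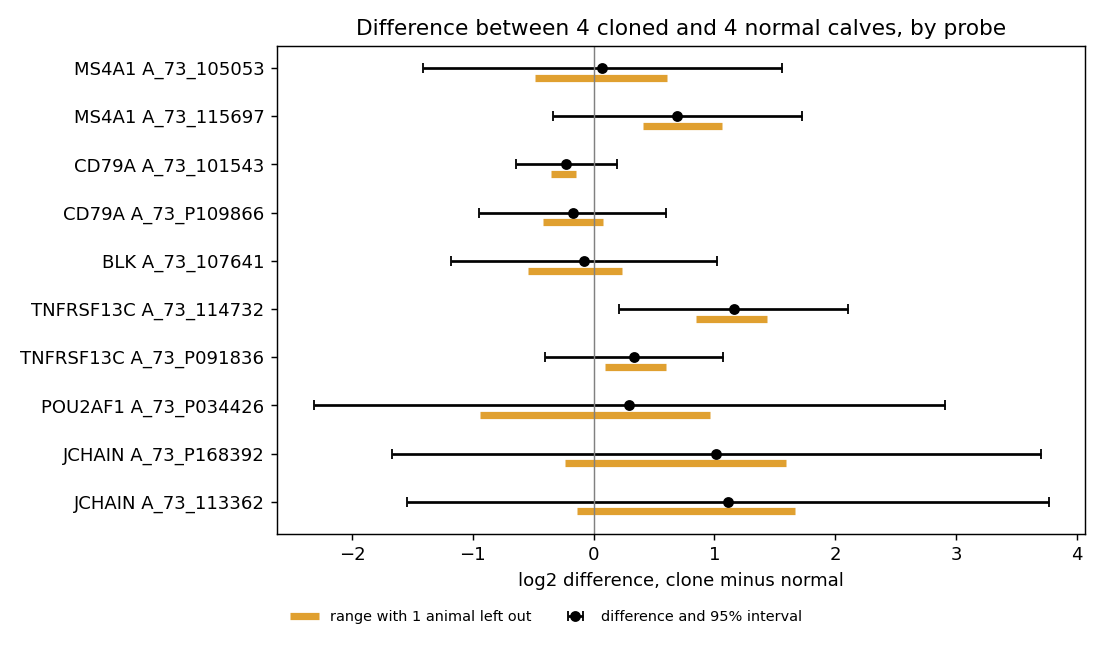
Black points are the log2 difference (clone minus normal, horizontal axis) of each probe with its 95% interval, and orange bars are the range of that difference when each of the 8 animals is left out in turn. The interval leaves out 0 for the TNFRSF13C probe A_73_114732 alone, and the orange bar crosses 0 for both JCHAIN probes, POU2AF1, BLK, 1 MS4A1 probe and 1 CD79A probe.

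The genes most like JCHAIN across the 8 animals, outside the lists used here, were IL21R, GPR18, RNASEH2B, SNX5 and FDX2. IL21R encodes the receptor of interleukin 21, a cytokine that drives B cells toward plasma cells, and correlated with JCHAIN at a Pearson r of 0.98 over 8 animals. Its log2 signal was -0.88, -2.99, -3.37 and -2.96 in clones, against -3.50, -1.93, -3.09 and -3.45 in normal animals. GPR18, a lipid-sensing receptor of lymphocytes, correlated at 0.97, with -1.64, -3.60, -3.85 and -3.86 in clones, against -3.86, -2.65, -4.05 and -3.96 in normal animals. In both genes clone 1 was highest and normal animal 2 second. Without clone 1 the r was 0.96 for IL21R and 0.88 for GPR18 over 7 animals. RNASEH2B, SNX5 and FDX2 correlated between 0.948 and 0.952 but varied little, and without clone 1 their r was 0.72, 0.80 and 0.70. The genes most like MS4A1 on its brighter probe were APIP, MCOLN2, DECR1, C1S and ADAMTS5, with r between 0.943 and 0.963 over 8 animals. All of them were highest in clone 1 and lowest in clone 3, for example MCOLN2 at -4.02 and -6.46 and C1S at 2.61 and 0.50. Without clone 1 their r lay between 0.89 and 0.96 over 7 animals. These genes were picked for their likeness out of 9854 compared, counted before any were passed over. The correlations therefore describe these 8 animals and carry no test.

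**Figure D3:**
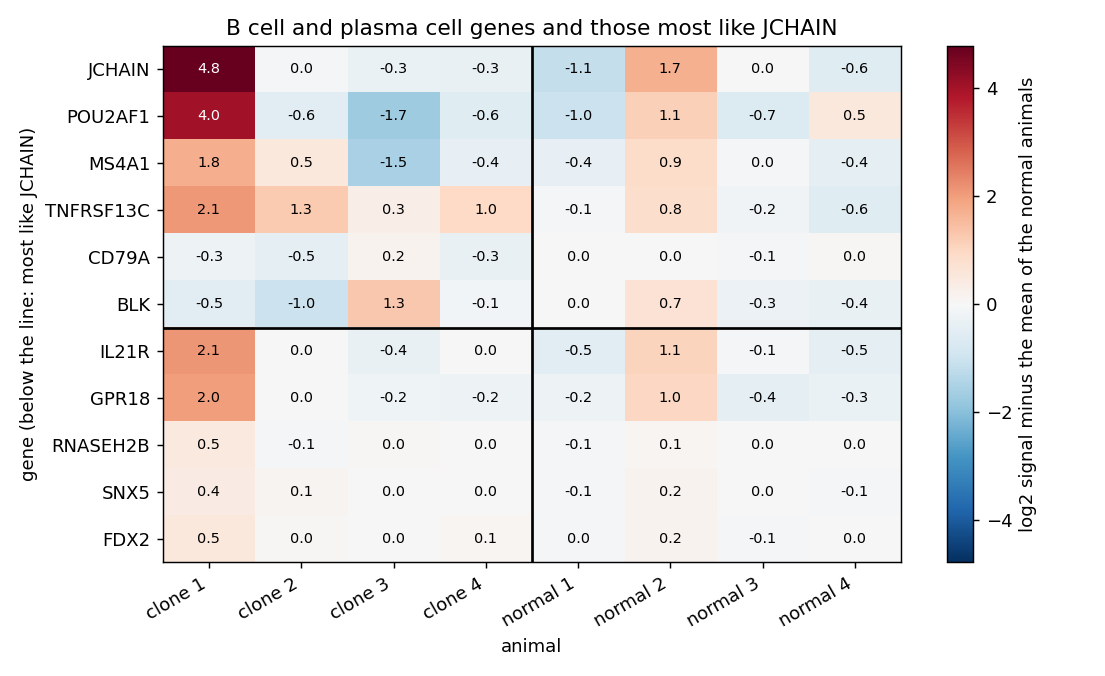
Each row is a gene on its brightest probe and each column an animal, clones left of the line and normal animals right of it, with the colour and number giving the log2 signal minus the mean of the normal animals. JCHAIN, POU2AF1, MS4A1, TNFRSF13C, IL21R and GPR18 are highest in clone 1, with normal animal 2 the highest normal animal, and CD79A and BLK are highest in clone 3.

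The 40 other B lineage genes measured, from 5 lists, gave 0 calls (limma, adjusted p under 0.05), where 0.182% of all genes were called. Their log2 differences were positive in 20 genes and negative in 20, with a median of 0.017 beside -0.017 for all genes. An unadjusted p under 0.05 was reached by 5 of the 40, all lower in clones, against 6.59% of all genes in that direction and 12.9% in either. The groups were fully separated in 2 of the 40, PTPN6 and INPP5D, against 9.84% of all genes. Without clone 1, 5 of the 40 passed: BTK at -1.80, SYK at -1.75 and PIGR at -1.90 were lower and CD81 at 0.62 and PRDM1 at 0.89 higher in the other clones (limma, adjusted p between 0.0145 and 0.0483). These 5 were named after their values were seen, and the same step raised the calls over all probes to 2565 of 35635.

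Among 12 genes of B cell receptor signalling the median log2 difference was -0.25, with 0 called, 4 positive and 8 negative. The 4 with the lowest p were the phosphatase PTPN6 at -0.68, the kinase BTK at -1.36, the lipid phosphatase INPP5D at -0.52 and the kinase LYN at -0.82 (limma, adjusted p between 0.242 and 0.343). BTK, whose loss in humans stops B cell development, read -0.55, -1.62, -3.07 and -2.27 in clones, against -0.71, -0.25, -0.59 and -0.55 in normal animals. It was thus low in clones 2 to 4, while clone 1 lay among the normal animals. These 4 genes are also expressed in myeloid cells, and the values of the macrophage and neutrophil markers lay in the same direction. Of 6 macrophage markers measured, 5 were negative with a median of -1.19, and the summed signal of the list, in units of the 75th percentile signal, ranged from 54.7 to 208 in clones and from 163 to 248 in normal animals. Of 9 neutrophil markers, 7 were negative with a median of -0.68, and the summed signal ranged from 16.8 to 119 in clones and from 32.6 to 49.1 in normal animals. All 6 macrophage markers and 7 of the 9 neutrophil markers were well above background on all 8 arrays. The part of these cells in the values of BTK, LYN, PTPN6 and INPP5D was not tested.

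Of the factors that set B cell identity and the genes that assemble the receptor, 5 were measured, with a median of 0.19 and 0 called. IKZF1, a zinc finger factor of all lymphocytes, differed by -0.72, EBF1, an early B cell factor that stromal cells also express, by 0.23, TCF3 by 0.19 and IRF8 by 0.36 (limma, adjusted p between 0.444 and 0.763). RAG2 and DNTT, which act when immunoglobulin genes are rearranged, were well above background on fewer than 4 arrays and were not tested. None of 13 immunoglobulin genes was matched to a probe, so antibody transcripts themselves were not analysed here.

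The 11 genes of plasma cells and antibody secretion had a median of -0.093, with 5 positive, 6 negative and 0 called. Those with the lowest p were PRDM1, the factor that drives plasma cell formation, at 0.53, DERL3, of endoplasmic reticulum quality control, at -0.51, the costimulatory receptor CD27 at -0.55 and the secretory stress factor XBP1 at -0.35 (limma, adjusted p between 0.561 and 0.731). The list's separate members did not follow 1 pattern. Clone 1 was the highest of the 8 animals in 6 of the 11, beside 26.5% of all genes and 5 of the 10 lung genes. Among the 6 was MZB1, a chaperone of immunoglobulin folding, at 0.078 in clone 1 against a range of -2.38 to -1.55 in normal animals. FKBP11, of the secretory pathway, was also highest in clone 1, at 3.00, and lay between 1.28 and 1.67 in normal animals. PIGR, the epithelial receptor that carries JCHAIN-bearing antibody across the mucosa, read 3.04 in clone 1 and between -2.22 and -1.26 in the other three clones, against -0.015, -0.016, -0.057 and 0.37 in normal animals. Its value in clone 1 was above, and in the other three clones below, all normal animals. PRDM1 went the other way in clone 1, at 0.49 the lowest of the 8, with 2.01, 1.94 and 1.83 in clones 2 to 4, against 0.79 to 1.24 in normal animals. CD38, an ectoenzyme of plasma cells and other leukocytes, was also lowest in clone 1, at -3.63, against -1.77 to -1.44 in normal animals.

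The ligands of TNFRSF13C and of its relatives showed no called difference. TNFSF13B, which encodes BAFF, differed by 0.33, TNFSF13, which encodes APRIL, by 0.061, CD40 by 0.27 and NFKB2, of the non-canonical NF-kB pathway, by 0.65 (limma, adjusted p between 0.601 and 0.932). The 5 measured genes of this list had a median of 0.27, with 4 positive and 0 called. NFKB2 read 0.50 in clone 3 and between -1.69 and -1.32 in the other three clones, against -1.78 to -1.46 in normal animals. Of 7 genes of B cell homing and lymphoid tissue, 0 were called and the median was 0.13. LTA, lymphotoxin alpha, differed by -0.69, the chemokine receptor CCR7 by 0.52 and its ligand CCL21 by 0.20 (limma, adjusted p between 0.436 and 0.874). The other CCR7 ligand, CCL19, read 2.19, -2.98, -2.02 and -3.75 in clones, against a highest value of -1.33 in normal animals. Clone 1 stood above all others in CCL19, but the list did not follow it. Clone 1 was the highest of the 8 in 2 of the 7 genes and the lowest in 3, among them LTA at -6.76. The LTA probe exceeded background in 1 clone, against all 4 normal animals. The follicle genes CXCR5, CXCL13 and CCR6 were well above background on fewer than 4 arrays and were not tested.

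**Figure D4:**
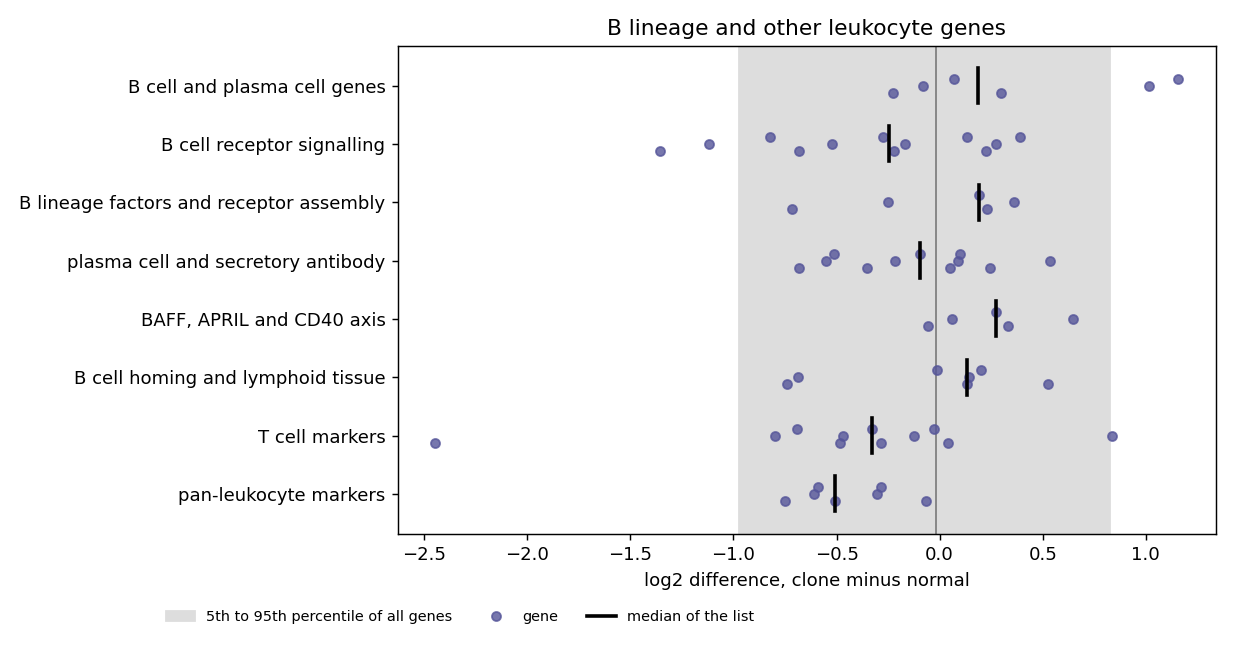
Points are genes on their brightest probe, placed by log2 difference (clone minus normal, horizontal axis), black bars are list medians, and the grey band runs from the 5th to the 95th percentile of all 9866 genes (-0.97 to 0.83). Most genes of every B lineage list lie within the band, with JCHAIN and TNFRSF13C above it and BTK and SYK below it.

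Markers of other blood cells moved in several directions in clone 1. The mean log2 signal of 11 T cell markers was -2.29, -1.39, -1.23 and -1.44 in clones 1 to 4, against -1.40, -0.44, -1.36 and -1.41 in normal animals 1 to 4. Clone 1 was the lowest of the 8 in 8 of the 11 markers and the highest in 0, and the summed signal of the list ranged from 14.5 to 23.5 in clones and from 17.9 to 24.3 in normal animals, while normal animal 2 was the highest normal animal in all 11. The list had a median difference of -0.33 with 0 called, led by the co-receptor CD8A at -2.45, CD2 at -0.69, CD5 at 0.84 and CD8B at -0.80 (limma, adjusted p between 0.175 and 0.591). Of 7 markers shared by all leukocytes, 0 were called and all were negative, with a median of -0.51, among them ARHGDIB at -0.59, CORO1A at -0.75, CD53 at -0.61 and CD48 at -0.28 (limma, adjusted p between 0.360 and 0.597). Their mean was 2.54 in clone 1 and between 1.81 and 1.93 in the other three clones, against 2.36 to 2.66 in normal animals. Clone 1 was thus the highest clone for these markers and lay within the normal range, and LCP1, an actin-bundling protein of leukocytes, was the highest of the 8 there at 4.50, against 3.42 to 3.52 in normal animals. Clone 1 also had the highest neutrophil list of the 8, with a mean of 1.05 and the summed signal of 119 given above. The calgranulin genes S100A8, S100A9 and S100A12 were highest in clone 1, as were the monocyte and macrophage genes CD14 and CD163. These calgranulin genes were the only 3 of the 9 neutrophil markers highest there. CXCR2 read -4.69 in clone 1, against -4.17 to -3.77 in normal animals, and CATHL5 0.39, against 1.06 to 2.07. Of the 6 macrophage markers clone 1 was highest in 2 and lowest in 2, C1QA and C1QB. The summed macrophage list was lowest there at 54.7. Of 7 erythroid markers, 5 were highest in clone 1, and their summed signal was 168 there, within a clone range of 18.2 to 168, against 14.7 to 55.3 in normal animals. The erythroid list had a median difference of 0.20 with 0 called. Of 4 markers of plasmacytoid dendritic cells, which share some genes with plasma cells, 2 were highest in clone 1, and the list median was -0.036 with 0 called, while the summed signal ranged from 13.8 to 20.1 in clones and from 15.3 to 17.2 in normal animals. These were LILRA4, at 3.38 in clone 1, against 0.38 to 1.98 in normal animals, and TLR7, at -3.82, against -4.90 to -4.43. TCF4 went the other way, at 2.72 the lowest of the 8, against 3.42 to 3.68 in normal animals. IRF7 was at 1.21 in clone 1, the lowest clone but above the 0.63 to 0.95 of normal animals. The part of these other cells in the JCHAIN signal of clone 1 was not tested.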

How the data were processed

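Total lung RNA of each calf was labelled with Cy3 and hybridised to 1 Agilent bovine array, per the labels. Per the file headers, the deposited processed intensity of each spot comes from Agilent's scanner software, which had subtracted the background. The program was Agilent Feature Extraction 10.7, per the submitters' processing notes. The authors' deposited value table holds log2 values, with a correlation of at least 0.999 to the processed signals of the same array after log2. Its columns share a median of 7.89 and a 75th percentile of 10.54, by a step the sources used here do not state.

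Control spots and spots with outlier flags (2 to 21 of 43803 per array) were left out. Saturated spots were 0. The log2 of the processed signal was centred on the array's 75th percentile, and probes well above background on at least 4 of 8 arrays were kept (35635 of 43653). Accessions were matched without versions to RefSeq genes on ARS-UCD2.0, and 23492 probes obtained a symbol. The array design names another build, so no coordinates are given, and no probe sequence was at hand. For each gene the kept probe brightest on average stands for it. The test was limma 3.58.1 in R 4.3.3 (lmFit, eBayes, group as sole term, 2-sided) with Benjamini-Hochberg adjustment over all kept probes and a threshold of 0.05. Intervals are 95% intervals of that fit.

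In simulated data for this comparison (35590 probes, pooled spread), the fit called 7 of 50 probes at a true log2 change of 1, 29 at 2, 41 at 3 and 47 at 4, with 7 false among 131 calls. The simulation gave both groups the same spread. In the data the SD was larger in clones for 90.0% of all probes and 7 of the 10 member probes, so these rates may not hold there. The named genes were all probes of the 6 genes, up to 4 genes of each list with the lowest p, and the 5 genes outside the lists most correlated with MS4A1 and with JCHAIN. Some genes of these lists are not reported here by name. Other genes named for their value in 1 animal were chosen after their values were seen. The genes and lists were chosen with earlier results of these data known. No source used here says that equal replicate numbers pair the animals, and the main fit had no pairing. The same-number correlations of deviations from the group means were 0.092, 0.099, -0.20 and -0.099. Those of unequal numbers ranged from -0.18 to 0.17. With so few animals these values cannot exclude a pairing.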

Additional observations from a re-analysis of the deposited data

Results flagged for a closer look

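In 3 of 20 tests (10 probes in each group of 4 animals), 1 animal lay apart from its group by Dixon's 95% criterion, which sets the gap to the nearest animal against the group's range. Chance gives about 1 in 20 such flags. On JCHAIN probe A_73_P168392 clone 1 had a log2 signal of 2.85, and its gap of 4.84 to the next clone was 0.942 of the range. On JCHAIN probe A_73_113362 clone 1 had 1.84, and its gap of 4.90 was 0.966 of the range. These 2 flags come from the same gene in the same animal. On CD79A probe A_73_101543 normal animal 3 had -0.34, and its gap of 0.125 was 0.924 of a range that was itself narrow.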

How the results depend on the processing

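Of the 10 probes, 0 passed in any alternative other than spike-in centring and array weights. The member genes called were 1 of 6 with spike-in centring (CD79A, -0.91, adjusted p = 0.0226) and 2 of 6 with array weights (CD79A, -0.40, and TNFRSF13C, 1.27). Spike-in centring moved the median of all probes to -0.71, against -0.022 with 75th percentile centring, and called 10698 probes (69 higher, 10629 lower, against 17 and 46) and 11 of the 40 other B lineage genes. Array weights called 11452 probes and 16 of the 40. The count over all probes was 0 with normexp and 75th percentile centring (2282 at an unadjusted p under 0.05, median of all probes -0.32), 25 when quantiles replaced that centring, 17 for probes above background on every array and 146 under trend and robust settings. It ranged from 17 to 2565 with 1 animal left out (2565 without clone 1, 449 without clone 3), and the 40 other B lineage genes gave between 0 and 5 calls.

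The median of the 6 genes, 0.18, was -0.50 with spike-in centring and -0.15 both with normexp and 75th percentile centring and with array weights, and ranged from -0.23 to 0.79 with 1 animal left out. Single probes turned sign, in every case without a call, as follows. With spike-in centring MS4A1 A_73_105053 was at -0.61, TNFRSF13C A_73_P091836 at -0.35 and POU2AF1 at -0.39. With normexp and 75th percentile centring the MS4A1 probes were at -0.59 and -0.56, TNFRSF13C A_73_P091836 at -0.53 and POU2AF1 at -0.27. With array weights POU2AF1 was at -0.57. With 1 animal left out MS4A1 A_73_105053 ranged from -0.49 to 0.61, BLK from -0.54 to 0.23, POU2AF1 from -0.94 to 0.96, JCHAIN from -0.24 to 1.59 and from -0.13 to 1.67 on its 2 probes, and CD79A A_73_P109866 from -0.42 to 0.077. In an alternative added after seeing the data, without clone 1 and normal animal 2, MS4A1 A_73_105053 was at -0.20, BLK at 0.28 and POU2AF1 at -0.56, with 0 genes called among the 6 and 323 probes over all. With the replicate block 13 probes were called over all and 0 of the 6 genes. The files hold no mean spot signal, so normexp used the median spot signal. The cause of these changes was not tested. Signal near background on some arrays limits the MS4A1, POU2AF1 and dimmer CD79A probes.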
